A study of Arabidopsis thaliana with 9 samples.

Results

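The 10 genes described here encode enzymes of photorespiration in Arabidopsis thaliana, and were chosen by name and locus: PGLP1 (AT5G36700), GOX1 (AT3G14420), GOX2 (AT3G14415), GGT1 (AT1G23310), AGT1 (AT2G13360), GLDP1 (AT4G33010), GLDT (AT1G11860), SHM1 (AT4G37930), HPR1 (AT1G68010) and GLYK (AT1G80380). They are 10 of the 33602 identifiers in the read count table, and all 10 were among the 18952 identifiers that passed the filter on low counts and were tested. RNA was sequenced from leaves of the wild-type accession Col-0 in 3 treatments with 3 libraries each. In prolonged warming (PW), plants aged 23 days were moved to days of 28 °C and nights of 23 °C, which lasted 7 days. Heat shock (HS) was 38 °C for 6 hours, applied 30 days after sowing. Control plants (CK) were grown throughout with days of 23 °C and nights of 18 °C and were 30 days old, and all plants had 16 hours of light and 8 hours of darkness. The libraries are biological replicates in the study's terms. Which plants or leaves made up a library is not given in the sources used here.

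Photorespiration recycles the 2-phosphoglycolate that forms when Rubisco fixes oxygen in place of carbon dioxide. The cycle starts in the chloroplast, continues in the peroxisome and the mitochondrion, and returns glycerate to the chloroplast, with loss of carbon dioxide and ammonia on the way. In leaves of plants such as Arabidopsis its enzymes are abundant, and the oxygenation reaction becomes more frequent, relative to carboxylation, as temperature rises.

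Whether reads can be assigned to a single gene differs among the members, so the coding sequences of the closest copies come first. All sequences and positions are from RefSeq TAIR10.1. The PGLP1 locus on chromosome 5 has a copy, here called PGLP1B (AT5G36790), 55871 bp away, and the coding sequences of the pair are identical over 1089 of 1089 bases. GOX1 and GOX2 are neighbours on chromosome 3, 377 bp apart, and their coding sequences are 92.4% identical, with 84 mismatches over 1104 aligned bases. The first 60 coding bases of each show the contrast. Capitals mark the bases in which GOX1 and GOX2 differ, and the PGLP1 pair has none. The stretches lie at chr5:14424371-14424430 on the minus strand (PGLP1), chr5:14483671-14483730 on the minus strand (PGLP1B), chr3:4821804-4821863 on the plus strand (GOX1) and chr3:4818667-4818726 on the plus strand (GOX2).
PGLP1: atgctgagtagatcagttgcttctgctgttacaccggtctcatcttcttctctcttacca
PGLP1B: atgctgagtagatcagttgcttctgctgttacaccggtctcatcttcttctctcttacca
GOX1: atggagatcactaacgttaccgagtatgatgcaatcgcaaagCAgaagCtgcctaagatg
GOX2: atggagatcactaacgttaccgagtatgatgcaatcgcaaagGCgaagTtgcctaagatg

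Of the 1704 windows of 100 bases in the PGLP1 transcript with the longest coding sequence, 1704 were also found in PGLP1B. Over all annotated isoforms, 295 of 2310 PGLP1 windows (12.8%) were absent from the other copy. The other 9 members, GOX1 and GOX2 included, shared 0 windows of this length with another gene. How the authors counted reads that match several places is not given in the sources used here, so the level of PGLP1 is uncertain while the other members had sequence of their own throughout. GOX1 and GLDP1 overlap a gene on the opposite strand by 21 bp (AT3G14430) and 14 bp (AT4G33000), and whether counting used strand is likewise not given.

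The libraries held from 11660970 to 17768334 counts. The members took from 1.04% to 1.86% of the counts in PW, from 0.987% to 1.82% in HS and from 0.710% to 0.906% in CK. The 9 members other than PGLP1 had from 1911 to 54933 counts in each library. The labelled tissue was checked with leaf mesophyll markers (RBCS1A, LHCB1.3, CA1 and RCA), which summed to between 61710 and 75080 CPM in PW, 27630 and 36440 CPM in HS and 24760 and 31190 CPM in CK. CPM are counts per 1e6 counts of the library, scaled by TMM, a correction for differences in library composition. Behind these sums the markers did not all go the same way in HS. Mean CPM of RCA and CA1 were 9519 and 4242 in HS, against 3010 and 1627 in CK. For RBCS1A and LHCB1.3 the means were 7594 and 11180 in HS, against 8447 and 15110 in CK. In PW the means were 11810 (RCA), 6906 (CA1), 20160 (RBCS1A) and 31360 (LHCB1.3).

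HS replicate 3 stood apart from the other HS libraries. Across genes, which are not independent replicates, the r of log2 CPM between HS replicate 3 and HS replicates 1 and 2 was 0.905 and 0.904, against 0.985 between HS replicates 1 and 2. Between PW libraries r was 0.930 (replicates 1 and 2), 0.962 (replicates 1 and 3) and 0.958 (replicates 2 and 3), and r alone set no single PW library apart. Between CK libraries r lay from 0.980 to 0.986. By chi-square per degree of freedom, counts differed more in the PW pairs with replicate 1 (59.82 and 44.93) than between replicates 2 and 3 (24.21). The TMM factor was 0.9635 in PW replicate 1, against 0.8126 and 0.8115 in PW replicates 2 and 3. Summed root markers were at 94.1 CPM in PW replicate 1 and 30.5 CPM in HS replicate 3. In the other PW and HS libraries they were between 0 and 4.74 CPM, while the CK libraries had 53.4, 58.5 and 37.0 CPM. Nearly all of this signal came from 2 of the 7 root markers, PYK10 (a beta-glucosidase) and PER33 (a peroxidase). The root hair markers COBL9, EXPA7 and LRX1 were at 0 in every PW and HS library. Flower markers (4 genes) summed to between 3.08 and 15.6 CPM in PW, 1.57 and 3.65 CPM in HS and 1.49 and 22.0 CPM in CK. Guard cell markers (3 genes) were between 48.6 and 88.3 CPM in PW, 26.5 and 43.5 CPM in HS and 35.9 and 38.2 CPM in CK. Phloem markers (SUC2 and APL) were lowest in PW replicate 1 (87.7 CPM) among the PW libraries, which otherwise had 250.3 and 239.9 CPM, and were 253.3, 206.8 and 143.5 CPM in HS and 140.3, 113.1 and 130.1 CPM in CK. The part of any of these markers in the results below was not tested. In whole leaves, fewer cells of a type and less RNA per cell cannot be told apart.

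In PW leaves, 7 of the 10 photorespiration genes passed the test against CK and all 7 were higher: GGT1, GOX1, HPR1, GLYK, SHM1, GOX2 and GLDT, by 1.75-fold (GLDT) to 3.42-fold (GGT1). A gene passed with an adjusted p under 0.05 in edgeR's quasi-likelihood test with Benjamini-Hochberg adjustment over all tested genes, and 16.4% of all tested genes passed as higher in PW than in CK. The median on the log2 scale was 1.27 over the members and -0.040 over all tested genes. With the study's minimum of a 2-fold change as well, 6 members were higher (8.82% of tested genes) and 0 lower (7.6%). In all 7 the PW libraries lay above the CK libraries without overlap, as in 25.3% of tested genes. AGT1 and GLDP1 did not pass, with overlapping libraries, and PGLP1 had its PW libraries below those of CK but did not pass either. GGT1, GOX1, HPR1 and GLYK passed under each of the 19 alternatives run for them. Of the other 3, calls were lost when CK replicate 1 was left out, which brought the count to 4, and likewise without CK replicate 3. Without PW replicate 1 the count was 9, with all members but PGLP1 higher. Scaling by library totals alone moved the median of all tested genes by more than any other setting, to -0.45 in PW vs CK, with -0.15 in HS vs CK and -0.26 between PW and HS. The members' medians were then 0.84, 0.79 and 0.13. In PW vs CK, GLDT was then no longer called (log2 fold change 0.39, edgeR adjusted p = 0.0924), and PGLP1 passed as lower.

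In HS leaves, 4 of the 10 genes passed against CK and all 4 were higher: GOX1 (3.17-fold), SHM1 (2.31-fold), HPR1 (2.20-fold) and GGT1 (2.19-fold). Of all tested genes, 21.2% passed as higher in HS than in CK. On the log2 scale the median was 1.004 over the members and 0.029 over all tested genes. With a 2-fold minimum, the same number, 4, were higher (11.3% of tested genes) and 0 lower (10.5%). The HS libraries of GOX1, HPR1 and GGT1 lay above CK without overlap, as in 29.7% of tested genes. GOX1 passed under each of the 19 alternatives. SHM1, HPR1 and GGT1 did not: leaving out HS replicate 1, HS replicate 2 or any of the CK libraries left 1 member called, and leaving out PW replicate 3, which enters the shared estimate of the spread, left 2. Leaving out HS replicate 3 raised the count to 8, with GLDT and PGLP1 not passing. Of all tested genes, 39.2% passed in either direction with all libraries and 51.9% without HS replicate 3. Without HS replicate 1, HS replicate 2 or any single CK library, the share lay between 25.8% and 28.1%. Without PW replicate 3 it was 36.9%. PW vs CK and HS vs CK share the CK libraries, so the values of each are given side by side below and not compared as independent results.

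Between the 2 heat treatments, GLYK (1.99-fold) and GLDT (1.98-fold) were higher in PW than in HS, and PGLP1 was lower in PW, at 0.463 times its level in HS. The call on PGLP1 rests on 14 to 53 counts per library, depends on how reads shared with PGLP1B were counted, and was lost under 12 of the 19 alternatives. Of all tested genes, 12.4% passed as higher in PW than in HS and 14.2% as lower. Over the members the median was 0.35 on the log2 scale, and over all tested genes -0.025. With a 2-fold minimum 0 members were higher (6.92% of tested genes) and 1 lower (7.57%). The other 7 members did not pass. Without PW replicate 3 the count fell to 0, where GLYK and GLDT had edgeR adjusted p values of 0.0556 and 0.0507, and without PW replicate 2 it fell to 1. With only the PW and HS libraries in the fit it was 0 (GLYK 0.0647, GLDT 0.0571 and PGLP1 0.104, adjusted by edgeR), and DESeq2 with all libraries called 3. Of all tested genes, 26.7% passed in either direction in the main fit, 20.2% without PW replicate 3 and 23.6% without PW replicate 2. With only the PW and HS libraries the share was 14.9%, and with DESeq2 it was 31.8%.

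**Figure D1:**
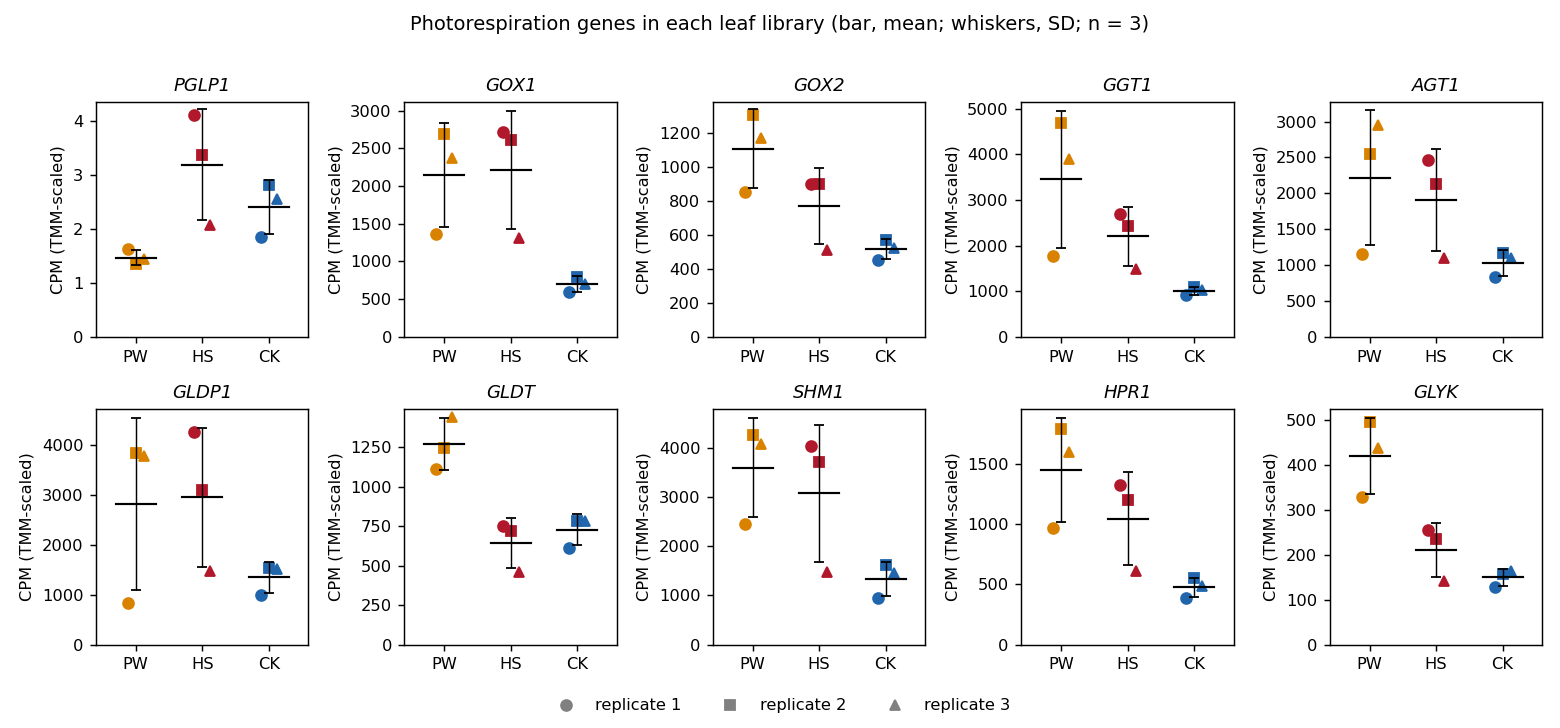
Level of each of the 10 genes in every library, in CPM scaled by TMM (vertical axes start at 0 and differ between genes), with PW, HS and CK from left to right, replicates as symbols, the mean as a bar and SD as whiskers (n = 3). The PW points of 7 genes lie above all CK points, and PW replicate 1 (circle) and HS replicate 3 (triangle) are the lowest of their treatments for 9 and 10 genes.

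**Figure D2:**
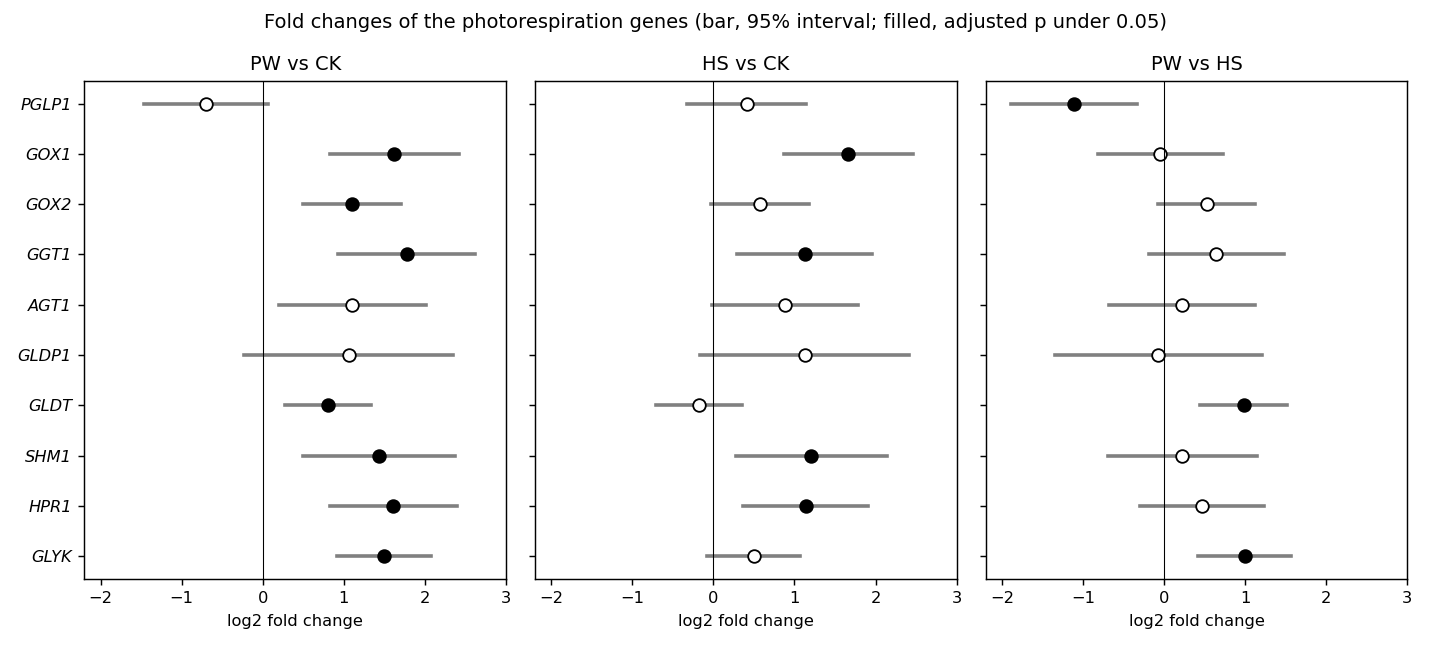
Log2 fold change of each gene in PW vs CK, HS vs CK and PW vs HS, with 95% intervals from edgeR's fit and filled circles for an adjusted p under 0.05. Filled circles number 7, 4 and 3, and PGLP1 is the only filled circle left of 0.

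PGLP1 encodes the chloroplast phosphatase that removes the phosphate from 2-phosphoglycolate and so opens the cycle. It had 1.62, 1.35 and 1.44 CPM in PW, 4.11, 3.38 and 2.09 CPM in HS and 1.85, 2.81 and 2.56 CPM in CK. These levels rest on 14 to 19 counts per library in PW, 28 to 53 in HS and 40 to 49 in CK. The PW libraries were the lowest without overlap. In PW vs HS the gene fell by 1.11 on the log2 scale (SE 0.34, edgeR adjusted p = 0.0400), while the value was -0.70 against CK in PW (SE 0.34, edgeR adjusted p = 0.148) and 0.41 against CK in HS (SE 0.33, edgeR adjusted p = 0.343). The identical copy PGLP1B did not show this order. It had 46, 40 and 23 counts in PW, 42, 38 and 23 in HS and 38, 62 and 46 in CK, and it differed between PW and HS by 0.33 on the log2 scale (edgeR adjusted p = 0.563). With the counts of both copies summed, PW and HS differed by -0.28 on that scale (edgeR adjusted p = 0.556), so the call on PGLP1 was lost, as it was under 12 of the 19 alternatives. Reads from most of the transcript match both copies, and whether such reads were counted at all is not given. The split of counts between the copies is therefore uncertain, and the summed counts may lack such reads. Neither the separate counts nor their sum can be taken as the expression of PGLP1.

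GOX1 and GOX2 encode glycolate oxidases, the peroxisomal enzymes that turn glycolate into glyoxylate and release hydrogen peroxide. GOX1 had 1365, 2688 and 2376 CPM in PW, 2714, 2616 and 1305 CPM in HS and 589.9, 800.5 and 702.8 CPM in CK. Every PW and HS library was above every CK library. For GOX1 the log2 fold change was 1.62 in PW vs CK (SE 0.35, edgeR adjusted p = 0.00865) and 1.66 in HS vs CK (SE 0.35, edgeR adjusted p = 0.00617). Between PW and HS it was -0.045, with a 95% interval from -0.82 to 0.73, which holds differences of either sign.

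GOX2 had 852.2, 1305 and 1172 CPM in PW, 902.2, 899.5 and 511.8 CPM in HS and 455.2, 572.5 and 524.1 CPM in CK. The PW libraries were all above CK, while HS replicate 3 fell inside the CK range. For GOX2 the log2 fold change was 1.10 in PW vs CK (SE 0.27, edgeR adjusted p = 0.0143), 0.58 in HS vs CK (SE 0.27, edgeR adjusted p = 0.114) and 0.53 in PW vs HS (SE 0.27, edgeR adjusted p = 0.177). Without HS replicate 3, GOX2 passed in HS vs CK, at 0.80 (edgeR adjusted p = 0.0133).

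The balance between these neighbouring genes was compared as a ratio, and none of the 3 comparisons passed a test. The ratio of GOX1 to GOX2, each as RPKM (CPM per kilobase of exon), was 1.46, 1.88 and 1.85 in PW, 2.75, 2.66 and 2.33 in HS and 1.18, 1.28 and 1.23 in CK. No library of one treatment overlapped another treatment, and HS replicate 3 and PW replicate 1, low in the level of both genes, kept the order. The geometric mean ratio was 2.57 in HS against 1.23 in CK, 1.72 in PW against 1.23 in CK, and 1.72 in PW against 2.57 in HS. Each of these gave p = 0.1 in a two-sided exact permutation test (n = 3 each), which is the smallest p this design allows, and 0.12 after Benjamini-Hochberg adjustment over 6 tests of ratios. The design cannot reach 0.05.

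GGT1 and AGT1 encode the peroxisomal aminotransferases that make glycine from glyoxylate, GGT1 with glutamate or alanine as amino donor and AGT1 with serine, which becomes hydroxypyruvate. GGT1 had 1784, 4688 and 3894 CPM in PW, 2704, 2437 and 1482 CPM in HS and 908.2, 1086 and 1035 CPM in CK. All PW and all HS libraries were above CK, and the PW libraries were spread over a wider range than the HS libraries. For GGT1 the log2 fold change was 1.77 in PW vs CK (SE 0.38, edgeR adjusted p = 0.00770), 1.13 in HS vs CK (SE 0.37, edgeR adjusted p = 0.0378) and 0.65 in PW vs HS (SE 0.37, edgeR adjusted p = 0.223). Without PW replicate 1, GGT1 passed in PW vs HS, at 0.96 (edgeR adjusted p = 0.0431).

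AGT1 had 1157, 2548 and 2955 CPM in PW, 2472, 2131 and 1104 CPM in HS and 830.7, 1174 and 1095 CPM in CK. PW replicate 1 and HS replicate 3 lay within the CK range and the other PW and HS libraries above it. For AGT1 the log2 fold change was 1.10 in PW vs CK (SE 0.40, edgeR adjusted p = 0.0650), 0.88 in HS vs CK (SE 0.40, edgeR adjusted p = 0.108) and 0.22 in PW vs HS (SE 0.40, edgeR adjusted p = 0.712). Without PW replicate 1 AGT1 passed in PW vs CK, at 1.41 (edgeR adjusted p = 0.0173), and without HS replicate 3 in HS vs CK, at 1.16 (edgeR adjusted p = 0.0233). DESeq2 also called it in PW vs CK, at 1.12 (adjusted p = 0.0170).

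In the mitochondrion, the glycine decarboxylase complex and serine hydroxymethyltransferase turn glycine into serine and release carbon dioxide and ammonia. GLDP1 encodes the P protein of the complex, which removes the carboxyl group of glycine. It had 825.7, 3838 and 3765 CPM in PW, 4264, 3094 and 1481 CPM in HS and 989.4, 1536 and 1520 CPM in CK. PW replicate 1 was below all CK libraries while the other PW libraries exceeded all CK libraries, and the mean of PW replicates 2 and 3 was 4.60 times the level in PW replicate 1. No other member had so wide a gap in PW. For GLDP1 the log2 fold change was 1.06 in PW vs CK (SE 0.57, edgeR adjusted p = 0.189) and 1.13 in HS vs CK (SE 0.57, edgeR adjusted p = 0.144), and between PW and HS it was -0.068 (edgeR adjusted p = 0.941). Without PW replicate 1 it was 1.50 in PW vs CK (edgeR adjusted p = 0.0288), and without HS replicate 3 it was 1.45 in HS vs CK (edgeR adjusted p = 0.0486).

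GLDT encodes the T protein of the same complex, which passes the remaining carbon unit to tetrahydrofolate. It had 1115, 1249 and 1443 CPM in PW, 749.7, 717.1 and 459.9 CPM in HS and 614.1, 780.8 and 785.7 CPM in CK. Here PW replicate 1 was close to the other PW libraries, and PW lay above both HS and CK without overlap. On the log2 scale GLDT changed by 0.80 in PW vs CK (SE 0.24, edgeR adjusted p = 0.0297) and 0.98 in PW vs HS (SE 0.24, edgeR adjusted p = 0.0154). In HS vs CK the value was -0.18, with a 95% interval from -0.71 to 0.35. GLDT was called in PW vs CK under 12 of the 19 alternatives. Leaving out PW replicate 2, PW replicate 3 or any CK library ended that call, with edgeR adjusted p values from 0.0634 to 0.109. With the replicate number as a block, the log2 fold change of GLDT in PW vs CK was 0.81 and did not pass (edgeR adjusted p = 0.0647).

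The P and T proteins work in one complex, and the ratio of their transcripts was compared in the same way. Again none of the 3 comparisons passed, and none could, since the smallest p of this design is 0.1. The RPKM ratio of GLDP1 to GLDT was 0.443, 1.84 and 1.56 in PW, 3.41, 2.58 and 1.93 in HS and 0.965, 1.18 and 1.16 in CK. The HS libraries were above the PW and CK libraries without overlap, and the PW libraries lay on both sides of CK. The geometric mean was 2.57 in HS against 1.10 in CK (two-sided exact permutation p = 0.1, n = 3 each, adjusted 0.12) and 1.08 in PW against 2.57 in HS (exact p = 0.1, adjusted 0.12). Between PW (1.08) and CK (1.10) the exact permutation p was 1.0.

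**Figure D3:**
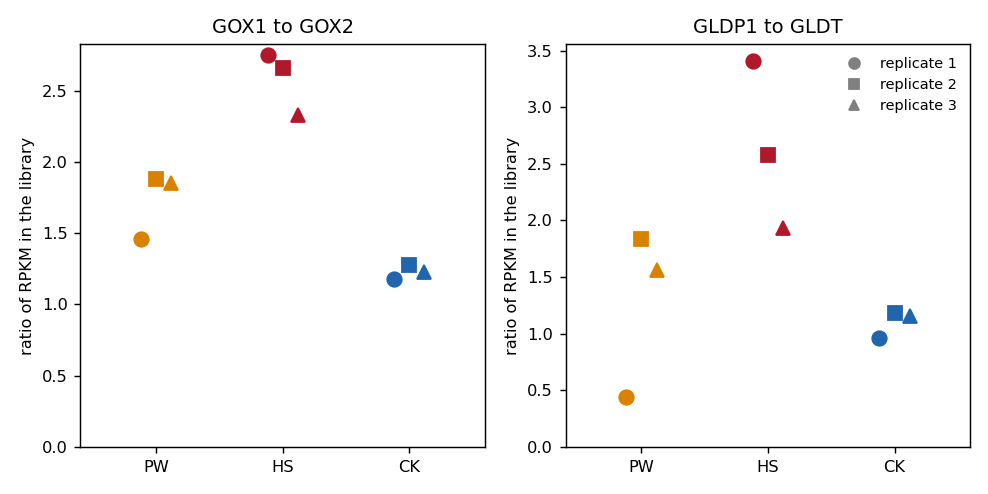
RPKM ratio of GOX1 to GOX2 and of GLDP1 to GLDT in each library, with PW, HS and CK from left to right and replicates as symbols (vertical axes start at 0). For GOX1 to GOX2 the 3 treatments do not overlap, with HS from 2.33 to 2.75 and CK from 1.18 to 1.28, and for GLDP1 to GLDT the PW libraries spread from 0.443 to 1.84 around the CK values.

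SHM1 encodes the mitochondrial serine hydroxymethyltransferase of leaves. It had 2438, 4258 and 4081 CPM in PW, 4029, 3713 and 1476 CPM in HS and 935.4, 1606 and 1456 CPM in CK. The PW libraries were all above CK, and HS replicate 3 fell within the CK range. For SHM1 the log2 fold change was 1.43 in PW vs CK (SE 0.41, edgeR adjusted p = 0.0283), 1.21 in HS vs CK (SE 0.41, edgeR adjusted p = 0.0440) and 0.23 in PW vs HS (SE 0.41, edgeR adjusted p = 0.715). SHM1 lost its call in PW vs CK under 5 of the 19 alternatives, each of them without a PW or CK library, and in HS vs CK under 10.

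HPR1 encodes the peroxisomal hydroxypyruvate reductase, which makes glycerate. It had 967.6, 1793 and 1599 CPM in PW, 1330, 1206 and 608.3 CPM in HS and 388.2, 550.9 and 488.0 CPM in CK. All PW and all HS libraries were above CK. For HPR1 the log2 fold change was 1.61 in PW vs CK (SE 0.35, edgeR adjusted p = 0.00819), 1.14 in HS vs CK (SE 0.34, edgeR adjusted p = 0.0269) and 0.47 in PW vs HS (SE 0.34, edgeR adjusted p = 0.335).

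GLYK encodes the chloroplast glycerate kinase, which closes the cycle by returning 3-phosphoglycerate. It had 327.5, 495.3 and 437.0 CPM in PW, 255.4, 234.9 and 142.3 CPM in HS and 127.2, 157.1 and 163.9 CPM in CK. PW lay above HS and CK without overlap, and HS replicate 3 was within the CK range. For GLYK the log2 fold change was 1.49 in PW vs CK (SE 0.26, edgeR adjusted p = 0.00307) and 0.99 in PW vs HS (SE 0.26, edgeR adjusted p = 0.0199). In HS vs CK it was 0.50 (SE 0.25, edgeR adjusted p = 0.146), and it passed without HS replicate 3, at 0.72 (edgeR adjusted p = 0.0171).

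By compartment, 4 of the 5 peroxisomal members (GOX1, GOX2, GGT1 and HPR1, not AGT1) rose in PW vs CK, where 16.4% of all tested genes did, and 3 of 5 (GOX1, GGT1 and HPR1) in HS vs CK, where 21.2% did. Of the 3 mitochondrial members, GLDT and SHM1 rose in PW vs CK and SHM1 in HS vs CK. Of the chloroplast members, GLYK rose in PW vs CK, and neither GLYK nor PGLP1 passed in HS vs CK.

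Within each treatment nearly all members were lowest in the same library. PW replicate 1 was the lowest PW library for 9 of 10 members, against 35.9% of all tested genes, and PGLP1 was the exception. HS replicate 3 was the lowest HS library for 10 of 10 members, against 42.6% of all tested genes, and CK replicate 1 was the lowest CK library for 10 of 10, against 36.5%. The mean of the other HS libraries was from 1.59 (GLDT) to 2.62 times (SHM1) the level in HS replicate 3. The summed CPM of the members were 10835, 22864 and 21724 in PW, 19424, 17051 and 8571.9 in HS and 5840, 8266.7 and 7773.2 in CK. The 2 low libraries of the heat treatments were also those with the root marker signal given above. Summed flower markers were likewise highest of their treatment in PW replicate 1 (15.6 CPM), HS replicate 3 (3.65 CPM) and CK replicate 1 (22.0 CPM). In HS these sums were small and the markers did not agree. AP1 had 24 counts in HS replicate 3 and 0 in HS replicates 1 and 2, while AG had 0, 17 and 15 counts in that order. The part of either signal in these levels was not tested. With PW replicate 1 and HS replicate 3 left out, a choice made after seeing the data, 9 members were higher in PW than in CK. In that fit 8 were higher in HS than in CK, and 4 passed between PW and HS. Of all tested genes, 49.7%, 59.9% and 39.2% then passed in either direction, in that order. With all libraries these shares were 31%, 39.2% and 26.7%.

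**Figure D4:**
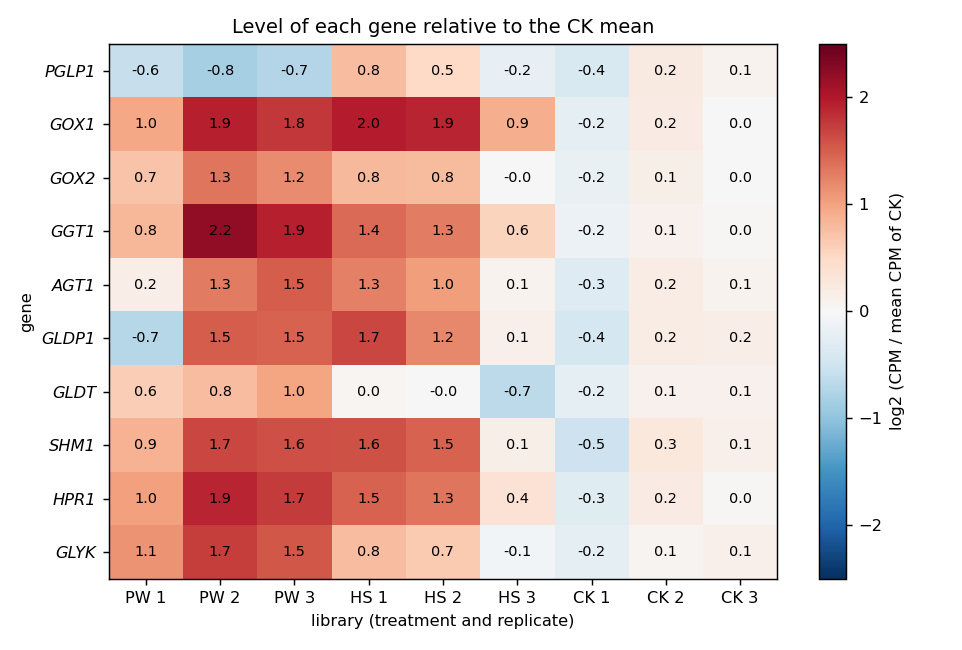
Level of each gene (rows) in each library (columns) as log2 of its CPM over the mean CPM of the CK libraries, red above and blue below that mean. PW replicate 1 and HS replicate 3 are paler than the other libraries of their treatments in most rows, and the PGLP1 row is blue in all 3 PW libraries.

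Levels of different genes were compared as RPKM. SHM1 was the highest member in every treatment, at 1806 ± 505 RPKM in PW, 1545 ± 700 RPKM in HS and 669.8 ± 177 RPKM in CK (SD, n = 3), and it exceeded the next gene in each of the libraries. In PW it was followed by GGT1 (1567 ± 681), GOX1 (1133 ± 365), AGT1 (1066 ± 452), HPR1 (811.7 ± 241), GLDP1 (783.5 ± 479), GOX2 (641.9 ± 135) and GLDT (591.2 ± 76.8). Within that order GOX1 and AGT1, HPR1 and GLDP1, GLDP1 and GOX2, GLDP1 and GLDT, and GOX2 and GLDT changed places in at least 1 library. In HS the order was SHM1, GOX1 (1169 ± 416), GGT1 (1001 ± 291), AGT1 (913.2 ± 342), GLDP1 (821.6 ± 390), HPR1 (585.6 ± 216), GOX2 (446.0 ± 130) and GLDT (299.1 ± 74.0), and AGT1 and GLDP1 alone changed places. In CK it was SHM1, AGT1 (496.0 ± 86.4), GGT1 (458.0 ± 41.6), GLDP1 (376.0 ± 86.7), GOX1 (368.8 ± 55.7), GLDT (338.6 ± 45.5), GOX2 (299.2 ± 34.1) and HPR1 (265.8 ± 45.8). There AGT1 and GGT1, GLDP1 and GOX1, and GLDP1 and GLDT changed places in at least 1 library. HPR1 thus had rank 5 in PW, 6 in HS and 8 in CK. GLYK had rank 9 in every treatment, at 154.8 ± 31.4 RPKM in PW, 77.8 ± 22.2 RPKM in HS and 55.1 ± 7.19 RPKM in CK. PGLP1 was the lowest, at 0.695 ± 0.066 RPKM in PW, 1.51 ± 0.49 RPKM in HS and 1.14 ± 0.24 RPKM in CK. Its place depends on how reads matching both copies were counted or left out.

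Of 25 other genes of the pathway, 25 were tested. Against CK, 6 were higher in PW, 4 lower and 15 did not pass, and the median was 0.30 on the log2 scale. Only 1 was higher in HS than in CK, while 7 were lower and 17 did not pass (median 0.11). Between PW and HS 5 were higher in PW, 0 lower and 20 did not pass (median 0.28). Of all tested genes, 16.4% passed as higher and 14.6% as lower in PW vs CK, and 21.2% and 18% in HS vs CK. In PW vs HS the shares were 12.4% and 14.2%. The medians over all tested genes were -0.040, 0.029 and -0.025, in the same order. Without TMM 2 were higher and 6 lower in PW vs CK (median -0.084), the median in HS vs CK was -0.081, and 3 were higher and 2 lower in PW than in HS. When single libraries were left out, the number higher in PW vs CK lay between 1 (without PW replicate 3 or CK replicate 1) and 9 (without HS replicate 3), and the number higher in HS vs CK reached 8 without HS replicate 3. Without HS replicate 3, 41.6% of all tested genes passed in either direction in PW vs CK and 51.9% in HS vs CK. In PW vs CK the share was 24.5% without PW replicate 3 and 20.1% without CK replicate 1. DESeq2 called 8 higher in PW vs CK and 5 higher in HS vs CK.

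CAT2, the peroxisomal catalase that removes the hydrogen peroxide made by glycolate oxidase, had the largest fold change of the listed pathway genes in both comparisons with CK. It had 705.0, 2753 and 1830 CPM in PW, 1996, 1805 and 692.9 CPM in HS and 60.8, 86.9 and 86.6 CPM in CK. Every PW and HS library was far above every CK library, with PW replicate 1 and HS replicate 3 again the lowest of their treatments. For CAT2 the log2 fold change was 4.50 in PW vs CK (SE 0.59, edgeR adjusted p = 0.000901) and 4.26 in HS vs CK (SE 0.58, edgeR adjusted p = 0.000816). CAT2 kept both calls under each of the 19 alternatives. The peroxisomal malate dehydrogenases, which supply reducing power to HPR1, went opposite ways in PW vs CK. PMDH2 had 1203, 2394 and 2020 CPM in PW and 510.1, 788.6 and 696.5 CPM in CK, and rose by 1.49 on the log2 scale (edgeR adjusted p = 0.0210). PMDH1 had 40.7, 30.3 and 37.3 CPM in PW and 73.7, 87.4 and 75.9 CPM in CK, and fell by 1.13 (edgeR adjusted p = 0.00118). In HS vs CK PMDH1 fell by 0.71 (edgeR adjusted p = 0.00724), and PMDH2, at 0.94, did not pass (edgeR adjusted p = 0.0888). PMDH1 kept both calls under each alternative, and PMDH2 lost its call in PW vs CK without PW replicate 2 or 3 or any CK library (edgeR adjusted p from 0.0503 to 0.0814).

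The partners of the mitochondrial members moved in both directions. In PW vs CK GLDP2, the second P protein gene (1.36, edgeR adjusted p = 0.0448), and the H protein genes GLDH3 (0.78, edgeR adjusted p = 0.0169) and GLDH1 (0.78, edgeR adjusted p = 0.0486) were higher on the log2 scale. PW replicate 1 of GLDP2, at 235.3 CPM, lay within the CK range of 193.7 to 249.1 CPM, while the other PW libraries had 845.1 and 683.6 CPM. Without TMM these 3 genes did not pass in PW vs CK (edgeR adjusted p = 0.0816, 0.0857 and 0.166). Of the 19 alternatives, GLDH1 lost the call under 11, among them leaving out any PW or CK library, GLDP2 under 8, among them leaving out PW replicate 2, PW replicate 3 or any CK library, and GLDH3 under 3. With the replicate block GLDP2 and GLDH1 each had an edgeR adjusted p of 0.0842. The H protein carries the reaction intermediates between the subunits. The lipoamide dehydrogenase gene mtLPD2, whose product reoxidizes the H protein, had 42.9, 30.6 and 39.8 CPM in PW, 43.9, 38.7 and 41.8 CPM in HS and 87.5, 90.2 and 86.1 CPM in CK. It fell by 1.22 in PW vs CK (edgeR adjusted p = 0.000634) and by 1.09 in HS vs CK (edgeR adjusted p = 0.000735). The other listed lipoamide dehydrogenase gene, mtLPD1, had higher levels and did not fall. It had 334, 475 and 562 CPM in PW, 389, 328 and 245 CPM in HS and 249, 332 and 309 CPM in CK. Its log2 fold change against CK was 0.62 in PW (edgeR adjusted p = 0.0874) and 0.11 in HS (edgeR adjusted p = 0.741), and neither passed. The cytosolic hydroxymethyltransferase gene SHM4 had 74.2, 54.1 and 79.9 CPM in PW, 42.5, 36.9 and 41.5 CPM in HS and 128.3, 142.2 and 149.7 CPM in CK. It fell by 1.01 in PW vs CK (edgeR adjusted p = 0.00251) and by 1.80 in HS vs CK (edgeR adjusted p = 0.000180), and was higher in PW than in HS by 0.79 (edgeR adjusted p = 0.00938). The calls of mtLPD2 and SHM4 against CK held under each of the 19 alternatives. SHM2, the mitochondrial relative of SHM1, fell by 0.42 in PW vs CK (edgeR adjusted p = 0.0230) and by 0.40 in HS vs CK (edgeR adjusted p = 0.0219). SHM2 lost its call under 4 of the 19 alternatives in PW vs CK, the replicate block among them (edgeR adjusted p = 0.0502), and under 3 in HS vs CK. Leaving out CK replicate 2 or CK replicate 3 ended both calls.

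Of 5 transporters, 1 was higher and 0 lower in PW vs CK, 0 higher and 3 lower in HS vs CK, while 4 were higher in PW than in HS, where their median log2 fold change was 0.88. Of all tested genes, 16.4% were higher in PW vs CK, 18% lower in HS vs CK and 12.4% higher in PW than in HS. The falls in HS vs CK held under each of the 19 alternatives, while the number higher in PW than in HS lay between 2 and 4. PLGG1, which exchanges glycolate and glycerate across the chloroplast envelope, had 229.3, 367.2 and 480.8 CPM in PW, 205.2, 195.8 and 115.3 CPM in HS and 135.5, 191.3 and 178.8 CPM in CK. It was higher in PW than in CK by 1.09 (edgeR adjusted p = 0.0273) and in PW than in HS by 1.06 (edgeR adjusted p = 0.0342) on the log2 scale. PLGG1 lost its call in PW vs CK under 7 of the 19 alternatives: without TMM (edgeR adjusted p = 0.0536), with the replicate block (0.0502) and without PW replicate 2, PW replicate 3 or any CK library (0.061 to 0.102). In PW vs HS it lost the call under 9, which included leaving out PW replicate 2 or 3 or any HS library. DIT2.1, a plastid dicarboxylate translocator that moves glutamate and malate, had 121.1, 211.1 and 189.5 CPM in PW, 71.9, 63.4 and 50.8 CPM in HS and 122.3, 167.6 and 172.4 CPM in CK. All HS libraries were below all PW and CK libraries. It fell by 1.31 in HS vs CK (edgeR adjusted p = 0.00349) and was higher in PW than in HS by 1.49 (edgeR adjusted p = 0.00296). DIT1, the plastid 2-oxoglutarate and malate translocator, and BOU, a mitochondrial carrier, fell in HS vs CK by 0.86 and 0.91 (edgeR adjusted p = 0.00662 and 0.00645) and were higher in PW than in HS by 0.88 and 0.71 (edgeR adjusted p = 0.00859 and 0.0256). In PW vs HS BOU lost its call under 5 of the 19 alternatives and DIT1 under 0. The ammonia refixation genes GLU1 (ferredoxin-dependent glutamate synthase) and GLN2 (plastid glutamine synthetase) passed in 0 of the 3 comparisons by edgeR's test. The smallest unadjusted p among them, and the only value under 0.05, was 0.0388, for GLU1 in HS vs CK. DESeq2 called 1 of the 2 genes higher in HS than in CK, as edgeR did without PW replicate 1 or without HS replicate 3, and without PW replicate 1 edgeR also called 1 higher in PW than in CK.

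**Figure D5:**
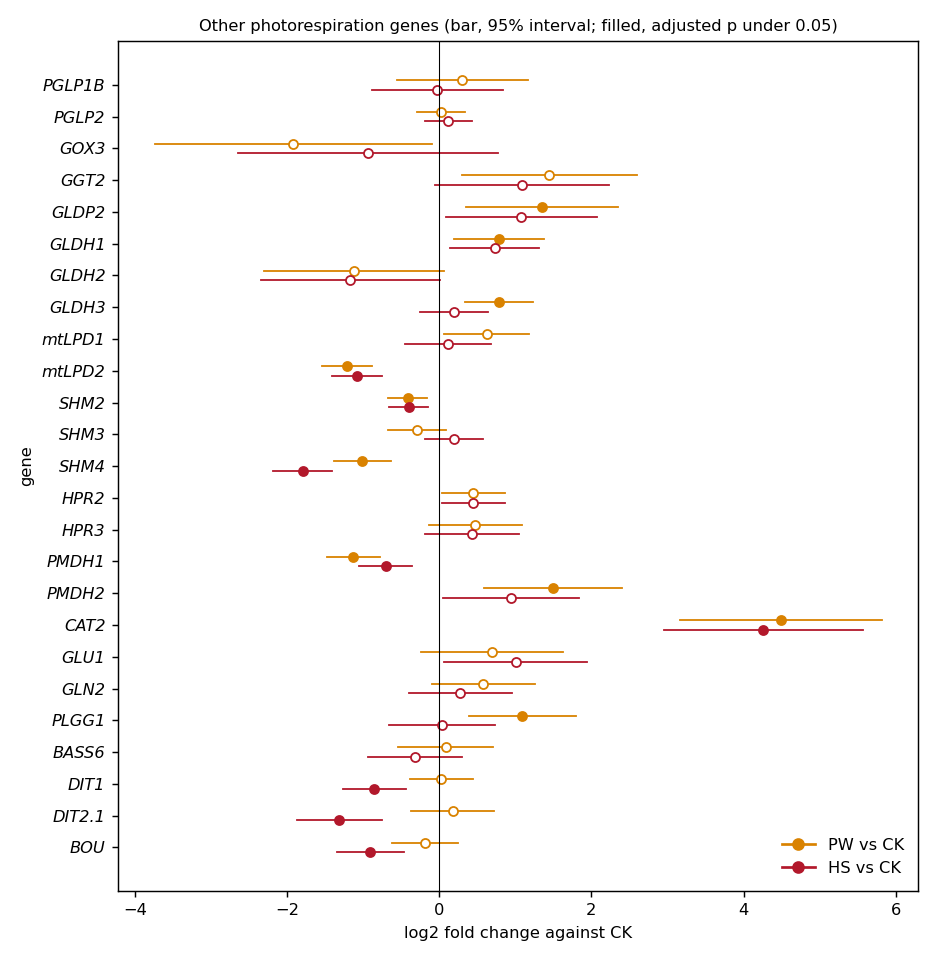
Log2 fold change against CK of the 25 other photorespiration genes, with PW vs CK above HS vs CK for each gene, 95% intervals from edgeR's fit and filled circles for an adjusted p under 0.05. CAT2 lies at 4.50 and 4.26, mtLPD2, SHM2, SHM4 and PMDH1 are filled left of 0 in both, and DIT1, DIT2.1 and BOU are filled left of 0 in HS vs CK and not in PW vs CK.

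The 300 bases upstream of each annotated start were searched on both strands for short motifs. CACGTG (G-box, a motif of many light-regulated genes) was found in 2 of 10 members, GGT1 and GLDP1, and in 7.09% of the 27443 windows of this length in the annotation. GATAAG (I-box) was found in 0 of 10 (14.5% of all windows), GAANNTTC (part of a heat shock element) in 0 of 10 (11.5%), and AAAATATCT (evening element) in 0 of 10 (2.79%). No 2 motifs overlapped in the members, since CACGTG alone was found, and a match is a string of letters and no evidence of binding. The GGT1 and GLDP1 windows are printed with CACGTG in capitals, 82 and 33 bases before the annotated start. They lie at chr1:8272022-8272321 and chr4:15931423-15931722 of TAIR10.1, both on the minus strand, and overlap no neighbouring gene.
GGT1: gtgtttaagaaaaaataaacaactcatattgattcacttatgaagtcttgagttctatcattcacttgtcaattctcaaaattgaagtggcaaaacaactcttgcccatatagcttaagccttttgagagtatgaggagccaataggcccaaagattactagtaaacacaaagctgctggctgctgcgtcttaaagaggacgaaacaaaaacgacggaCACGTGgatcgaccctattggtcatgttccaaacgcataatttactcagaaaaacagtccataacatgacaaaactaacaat
GLDP1: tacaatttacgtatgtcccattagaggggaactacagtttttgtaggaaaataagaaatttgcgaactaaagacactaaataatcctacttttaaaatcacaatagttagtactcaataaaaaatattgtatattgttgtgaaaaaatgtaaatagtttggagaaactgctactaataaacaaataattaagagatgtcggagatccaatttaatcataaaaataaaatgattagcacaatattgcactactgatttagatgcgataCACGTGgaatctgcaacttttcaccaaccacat

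The gene most like the mean profile of the members was AT5G19540, annotated as thermosome subunit gamma. Likeness was the root mean square difference of log2 CPM, each centred on the gene's mean over the 9 libraries, among 18942 tested genes that are not members. AT5G19540 differed by 0.0655, EMB2761 (AT2G04842, threonyl-tRNA synthetase) by 0.0738 and PSAL (AT4G12800, photosystem I subunit L) by 0.0911. The members themselves differed from their own mean profile by 0.138 (AGT1) to 0.796 (PGLP1), with GOX2 at 0.163, HPR1 at 0.210, SHM1 at 0.212, GLDP1 at 0.449 and GLDT at 0.458. PSAL had 2958, 4944 and 5291 CPM in PW, 3968, 3594 and 2134 CPM in HS and 1678, 2239 and 2043 CPM in CK, with PW replicate 1 and HS replicate 3 the lowest of their treatments, as for most members.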

How the data were processed

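Leaf RNA of 9 libraries was used, 3 for each treatment. The authors removed low-quality reads and aligned what remained to TAIR10 by TopHat2. The deposited table gives raw counts, which the authors did not normalize. The submitters' processing notes also name CASAVA 1.8 and HTSeq 0.6.1. Strand use, treatment of reads with several matches and the annotation version are not given in the sources used here. Positions and sequences came from RefSeq TAIR10.1, matched by locus for 32835 of 33602 identifiers.

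Genes reaching 10 counts in 3 or more libraries entered edgeR 4.0.16 (R 4.3.3, limma 3.58.1): TMM scaling, quasi-likelihood fit of all 9 libraries with a coefficient per treatment, Benjamini-Hochberg adjustment over 18952 genes, pass at an adjusted p under 0.05. SE is the log2 fold change over the root of F. The study's 2-fold minimum, DESeq2 1.42.0, other filters and scalings, a replicate block and leaving out libraries were alternatives. Common biological coefficient of variation was 0.273. In simulated data for PW vs CK with 18659 genes, the test recovered 21.2% of 2-fold changes (99 genes) and 71.7% of 4-fold changes (99 genes). There 18461 genes were unchanged, while 31% of tested genes passed in the real PW vs CK. Benjamini-Hochberg adjustment is stricter where few genes change, so these shares do not give the power in the real data. Same-numbered PW and CK libraries deviated together from their group means (r = 0.287, 0.299 and 0.123 for replicates 1 to 3, across genes), and differently numbered ones had r from -0.265 to -0.0263. Differently numbered libraries had r from -0.569 to 0.54 between PW and HS and from -0.268 to 0.326 between HS and CK. The labels name no shared plant or day, so whether the numbers pair any libraries cannot be told. A block by replicate number was run as an alternative only. The block was fitted over all 9 libraries. The counts of every replicate pair differed by more than sampling noise. RPKM used TMM-scaled library sizes and exon lengths. Figures were drawn with Python 3.11.15 and matplotlib 3.10.9.

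The members and lists were chosen with earlier results of these data known. All members are named, and other pathway genes where they passed in any comparison. The lipoamide dehydrogenase gene mtLPD1 and the ammonia refixation genes are named as well. Copies of members are named whatever their values, with the genes most like the members in profile.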

Additional observations from a re-analysis of the deposited data

How the results depend on the processing

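In all 7 members passed in PW vs CK, 4 in HS vs CK and 3 between PW and HS. The count in PW vs CK stayed between 6 and 9 under the alternatives that kept all libraries or left out PW replicate 1 and HS replicate 3 together, and ranged from 4 to 9 when single libraries were left out. In HS vs CK it ranged from 1 to 8 when single libraries were left out, and was 8 with both of those libraries left out. In PW vs HS it ranged from 0 to 3 when single libraries were left out, was 0 with only the 2 groups compared and was 1 under the 2-fold rule, the member being PGLP1. The share of all tested genes passing when single libraries were left out ranged from 19.4% to 41.6% in PW vs CK. It ranged from 25.8% to 51.9% in HS vs CK and from 17.4% to 36.5% in PW vs HS.

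With the replicate block, 6 members passed in PW vs CK, where GLDT alone lost its call, 2 in HS vs CK and 2 between PW and HS. In those last 2 comparisons the deviations of same-numbered libraries did not go together throughout. They correlated at -0.308, 0.186 and -0.098 between HS and CK, and at -0.491, 0.451 and 0.102 between PW and HS.

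The sign turned in comparisons that did not pass. Leaving out single libraries, GLDT in HS vs CK ranged from -0.30 to 0.016 (without HS replicate 3). In PW vs HS, GOX1 ranged from -0.32 to 0.20 (without PW replicate 1), AGT1 from -0.055 (without HS replicate 3) to 0.53, GLDP1 from -0.39 to 0.37 (without PW replicate 1) and SHM1 from -0.11 (without HS replicate 3) to 0.47. With PW replicate 1 and HS replicate 3 left out together, GLDT in HS vs CK was 0.014 and GLDP1 in PW vs HS was 0.046. Without TMM, AGT1 in PW vs HS was -0.013. The cause was not tested. The order of the members by RPKM was the same without TMM in each treatment. PGLP1 alone among the members had few counts, 14 to 53 per library. All 1704 windows of 100 bases in its transcript with the longest coding sequence were shared with PGLP1B. Whether reads matching both copies were counted is not given.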
